A study of Mus musculus with 25 samples.

Results

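The Th17 lineage genes followed here were 9 genes of the T helper 17 (Th17) programme, Rora, Il17a, Il17f, Il22, Il23r, Il1r1, Ccr6, Ahr and Maf, of the 46078 genes in the count table. They were taken as a named list and matched from the Ensembl identifiers of the table to mouse symbols. The list was chosen with earlier results of these data known. Their RNA was read in every library of CD4 T cells sorted from C57BL/6NTac mice that lacked the microRNA miR-150 (knock-out), carried a miR-150 knock-in allele, or were wild-type at that locus. Each genotype was studied on day 7 of experimental autoimmune encephalomyelitis (EAE), in which immunization with myelin antigen gives mice a disease like multiple sclerosis, and at the naive stage. There were 4 knock-out, 4 knock-in and 5 wild-type libraries at day 7, and 4 naive libraries of each genotype, 25 in all. The organ the cells came from, the promoter of the knock-in allele and the cells in which it acts are not stated in the labels. The labels do not tell whether each library is a separate animal, and the p-values below therefore reflect spread among libraries that may be technical.

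Th17 cells are CD4 T cells that make interleukin-17A, interleukin-17F and interleukin-22, and in EAE they are among the cells known to drive inflammation of the central nervous system. Interleukin-6 with transforming growth factor beta starts the programme in a naive cell, and interleukin-1 and interleukin-23, read through the receptors encoded by Il1r1 and Il23r, sustain it. Rora encodes a retinoic acid receptor-related orphan receptor (ROR) of the lineage, Maf and Ahr encode transcription factors that act with it, and Ccr6 encodes the chemokine receptor that guides such cells to inflamed barriers.

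ROR proteins bind DNA at AGGTCA, the core of the ROR response element, which is why promoters that hold these letters are shown. RefSeq promoter windows of GRCm38.p6 (250 bases before to 50 after a transcript start) were available for 7 of the 9 genes, in 9 windows. AGGTCA on either strand was found in a window of 4 of these 7 genes, Il17a, Il17f, Il23r and Ccr6. Of all 32851 windows of this length, 16.3% held it. The AP-1 letters TGANTCA were found in Il17a alone among the 7 genes, and in 7.81% of all windows; no match overlapped another. Those of Rora, Il22 and Il1r1, and the other Ccr6 window, held neither motif. The windows with a match are printed 5′ to 3′ on the strand of the gene, with matches in capitals. They are Il17a (chr1:20730655-20730954, plus strand), Il17f (chr1:20784221-20784520, minus strand), Il23r (chr6:67491806-67492105, minus strand) and Ccr6 (chr17:8235793-8236092, plus strand).
Il17a: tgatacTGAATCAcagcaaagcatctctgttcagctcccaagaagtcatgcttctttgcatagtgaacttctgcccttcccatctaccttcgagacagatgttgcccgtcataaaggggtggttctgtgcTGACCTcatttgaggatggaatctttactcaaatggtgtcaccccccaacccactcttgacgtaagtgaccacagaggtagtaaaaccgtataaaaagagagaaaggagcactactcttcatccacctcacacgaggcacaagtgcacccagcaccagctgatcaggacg
Il17f: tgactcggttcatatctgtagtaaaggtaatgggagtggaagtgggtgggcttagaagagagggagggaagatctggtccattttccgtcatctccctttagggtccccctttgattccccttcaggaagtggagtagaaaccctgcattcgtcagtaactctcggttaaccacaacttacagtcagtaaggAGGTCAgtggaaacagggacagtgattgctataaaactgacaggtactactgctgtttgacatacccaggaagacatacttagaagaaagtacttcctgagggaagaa
Il23r: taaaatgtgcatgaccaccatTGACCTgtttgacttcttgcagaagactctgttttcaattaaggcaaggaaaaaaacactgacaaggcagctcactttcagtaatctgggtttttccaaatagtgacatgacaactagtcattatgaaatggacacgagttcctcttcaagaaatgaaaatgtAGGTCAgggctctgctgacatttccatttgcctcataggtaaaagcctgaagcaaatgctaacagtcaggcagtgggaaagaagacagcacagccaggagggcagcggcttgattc
Ccr6: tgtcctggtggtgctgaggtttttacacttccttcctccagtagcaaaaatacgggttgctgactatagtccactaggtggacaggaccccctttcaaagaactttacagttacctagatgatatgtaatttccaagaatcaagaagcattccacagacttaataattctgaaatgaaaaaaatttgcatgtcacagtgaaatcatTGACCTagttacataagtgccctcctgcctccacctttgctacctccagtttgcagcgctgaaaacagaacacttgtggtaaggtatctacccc
Counted from the transcript start, the ROR core lay at -120 to -115 in Il17a, at -58 to -53 in Il17f, at -229 to -224 and again at -66 to -61 in Il23r, and at -44 to -39 in Ccr6. The AP-1 letters of Il17a lay at -244 to -238. A match describes the sequence and is not a measured binding site.

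In the GENCODE M21 annotation of mm10 all 9 genes are protein-coding. Il17a (chr1:20730905-20734496, plus strand) and Il17f (chr1:20777146-20790617, minus strand) are neighbours with 42649 bases between them, and Il1r1 (chr1:40225080-40317257) is on the same chromosome. Il22 is at chr10:118204942-118210047, Il23r at chr6:67422932-67491855, Ccr6 at chr17:8236043-8257141, Rora at chr9:68653786-69388246, Ahr at chr12:35497974-35535038 and Maf at chr8:115682942-115707794. The RefSeq start used for the Il17f window lies inside the GENCODE gene. Exons of an antisense gene share 5.34% of the exon bases of Maf, 2.06% of Ahr and 0.627% of Rora, where reads cannot be assigned to a gene without the strand setting.

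Library totals lay between 6024043 and 49489134 counts, with the naive wild-type libraries the shallowest group, at 6024043 to 9351180. Levels are given in CPM, the counts of a gene scaled to a common library total, after TMM scaling, which evens out differences in library composition. Mir150, the microRNA's own gene, had no count in any of the 8 knock-out libraries, while knock-in libraries held 9.08 to 29.2 CPM of it at day 7 and 12.9 to 16.2 CPM at the naive stage. Wild-type libraries held 12.4 to 25.7 CPM at day 7 and 14.4 to 24.5 CPM at the naive stage. CD4 T cell markers (Cd4, Cd3d, Cd3e, Cd3g, Trac, Cd5 and Lck) summed to 2099 to 2407 CPM in every library. The day 7 knock-out replicate 3 was the deepest library and stood apart from its group, with the lowest quality weight in limma, 0.144. Of 46078 genes, 14703 had enough counts for the edgeR fit, among them 7 of the 9 Th17 genes; Il17a and Il17f did not.

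Of the cytokine genes that define the lineage, Il17a was nearly silent. Il17a had 3 counts over all 25 libraries, all of them in the day 7 knock-out replicate 3. In the other day 7 groups a count of 0 allowed a mean of up to 0.0422 CPM in knock-in and 0.0318 CPM in wild-type cells, taking 3 counts over the group as the limit. Such limits cover counting error only. At this depth a difference in Il17a between groups was not detectable.

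Il17f, which encodes the partner chain of interleukin-17A, was low but present at day 7 in all 13 libraries. Its day 7 levels by replicate were 0.0851, 0.282, 0.221 and 0.439 CPM in knock-out, 0.708, 0.154, 0.197 and 0.173 CPM in knock-in and 0.104, 1.08, 0.483, 0.173 and 0.421 CPM in wild-type cells. The naive levels were 0, 0, 0.314 and 0.0450 CPM in knock-out, 0.0424, 0.0799, 0.0444 and 0.607 CPM in knock-in and 0.157, 0, 0 and 0.103 CPM in wild-type cells. The stages overlapped in every genotype, and naive knock-in replicate 4 was higher than all but 2 of the 13 day 7 libraries. The mean log2(CPM + 0.5) differed between day 7 and naive by 0.37 in knock-out, 0.24 in knock-in and 0.68 in wild-type cells. Two-sided exact permutation tests gave p = 0.143, p = 0.457 and p = 0.0476, where the smallest possible values were 0.0286, 0.0286 and 0.00794. Adjusted over the 8 comparisons of Il17f, the wild-type p was 0.381.

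Il22, which encodes a cytokine that acts on epithelia, was detected at day 7 alone. It had no count in any of the 12 naive libraries and 130 counts at day 7, spread over 9 of 13 libraries. The day 7 levels were 0.0426, 0.565, 0 and 0 CPM in knock-out, 2.98, 0, 0.315 and 1.12 CPM in knock-in and 0.418, 0.769, 0.725, 0 and 0.301 CPM in wild-type cells. The highest library was day 7 knock-in replicate 1, with 63 counts, and each genotype had at least 1 day 7 library at 0. Taking 3 counts over the naive group as the limit, the day 7 mean was at least 5.70-fold higher in knock-out, 40.9-fold in knock-in and 4.72-fold in wild-type cells. The limit varied with naive depth, at 0.0266 CPM in knock-out, 0.0270 CPM in knock-in and 0.0937 CPM in wild-type cells. The day 7 means were 0.152, 1.10 and 0.442 CPM in the same order, so the bounds do not rank the genotypes. These bounds rested on single libraries. In knock-out cells the bound was 3.77-fold without naive replicate 1 and 3.45-fold without naive replicate 4, and no bound was left without day 7 replicate 2, which held 6 of the 7 Il22 counts of its group. In knock-in cells it was 17.8-fold without day 7 replicate 1, 23.6-fold without naive replicate 1 and 24.4-fold without naive replicate 3. In wild-type cells it lay between 3.29-fold and 5.90-fold when 1 library was left out. Il22 passed the low-count filter through its day 7 counts alone, so the direction of its fitted change was fixed in advance. The p-values that follow are given for completeness and are no support for a rise. By edgeR the change averaged over the 3 genotypes passed (adjusted p = 0.00579), while those of knock-out (adjusted p = 0.431), knock-in (adjusted p = 0.0534) and wild-type cells (adjusted p = 0.281) did not. The knock-in change passed with blocks of library numbers (adjusted p = 0.0454), by limma voom (0.0339), without mitochondrial, ribosomal RNA and haemoglobin genes (0.0494), with no filter (0.000128), and without knock-in day 7 replicate 2 (0.0421) or replicate 3 (0.0452); without knock-in day 7 replicate 1 its adjusted p was 0.234. Without day 7 knock-out replicate 2 the adjusted p of the averaged change was 0.0594. In bulk RNA, fewer cells of a type and less RNA per cell cannot be told apart.

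**Figure D1:**
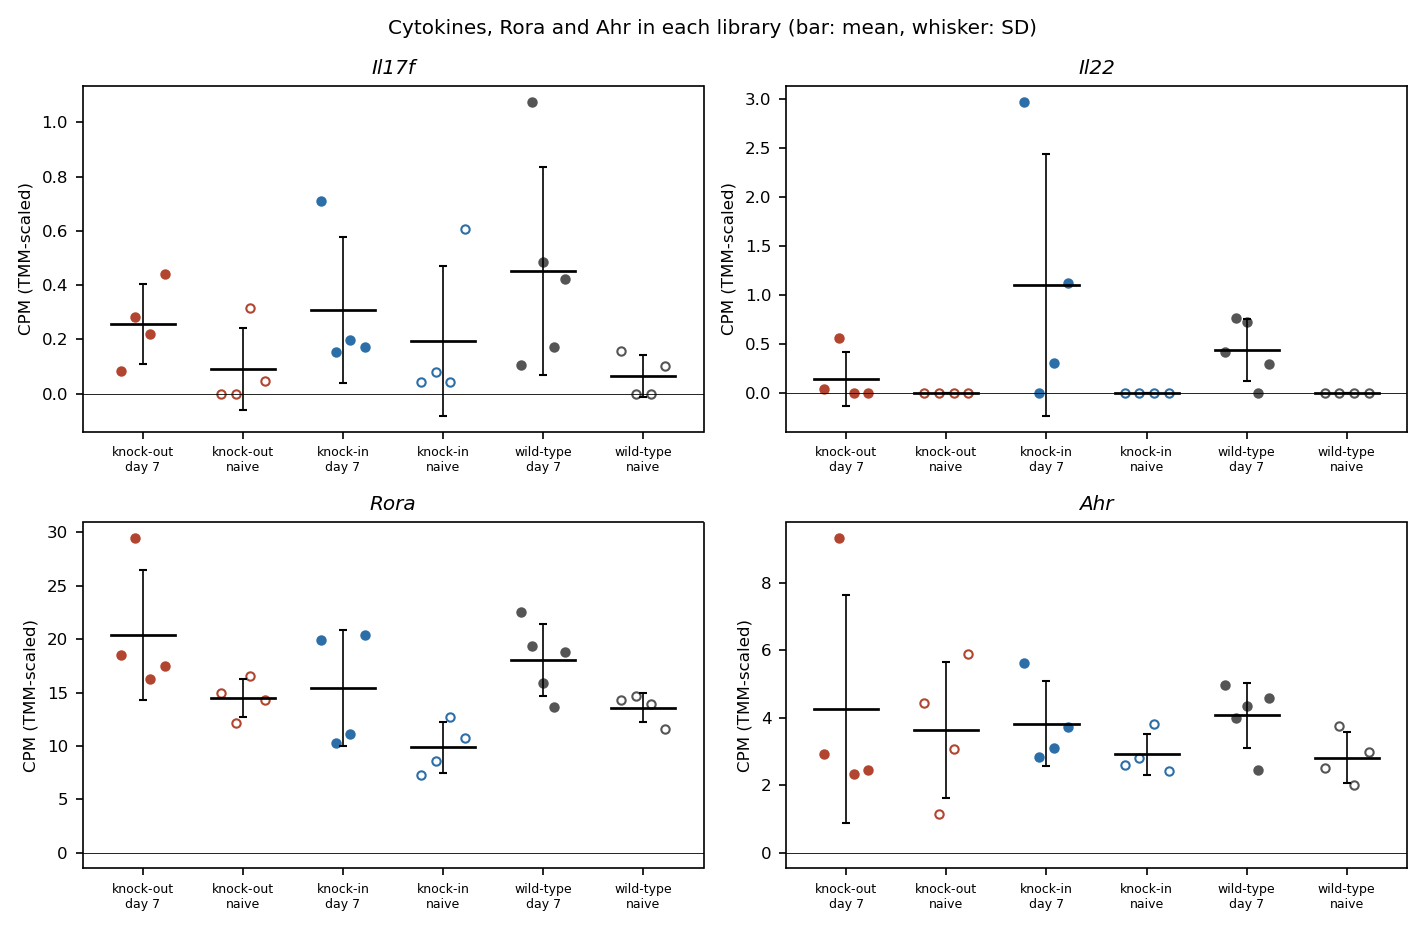
Levels of Il17f, Il22, Rora and Ahr (CPM after TMM scaling, vertical axes) in each library of the 6 groups; filled points are day 7, open points naive, bars the group mean and whiskers the SD. Il22 is at 0 in all 12 naive libraries and highest in a knock-in day 7 library at 2.98 CPM, while Rora and Ahr overlap between stages in every genotype.

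Il1r1, which encodes the signalling receptor for interleukin-1, had the largest averaged day 7 change among the 6 Th17 genes detected in all 25 libraries. It had day 7 levels of 2.85, 9.32, 7.57 and 2.45 CPM in knock-out, 20.5, 3.39, 2.25 and 9.51 CPM in knock-in and 10.7, 6.46, 8.56, 2.76 and 1.92 CPM in wild-type cells. The naive levels were 0.760, 0.779, 1.45 and 0.877 CPM in knock-out, 0.551, 0.319, 0.156 and 0.759 CPM in knock-in and 0.471, 0.671, 0.941 and 0.309 CPM in wild-type cells. Every day 7 library lay above every naive library of its genotype, although the day 7 libraries of a group spread widely. On the log2 scale the day 7 change was 4.48 ± 0.69 in knock-in (SE, 95% confidence interval 3.06 to 5.90; adjusted p = 0.000363) and 3.34 ± 0.71 in wild-type cells (SE, 1.89 to 4.79; adjusted p = 0.00819). In knock-out cells it was 2.53 ± 0.61 (SE, 1.29 to 3.78) and just missed the threshold (adjusted p = 0.0561). Averaged over the genotypes Il1r1 rose 10.9-fold (log2 3.45 ± 0.39, SE; adjusted p = 5.27e-07). Without knock-in day 7 replicate 1 the knock-in change was 3.63 with adjusted p = 0.00276, and without knock-out day 7 replicate 4 the knock-out change was 2.78 with adjusted p = 0.0392. By limma voom with quality weights the wild-type adjusted p was 0.157.

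Il23r encodes the receptor chain specific for interleukin-23. At day 7 it stood at 0.894, 5.37, 2.17 and 1.13 CPM in knock-out, 4.16, 0.385, 0.907 and 0.951 CPM in knock-in and 1.31, 0.461, 3.63, 0.389 and 2.40 CPM in wild-type cells. Naive cells held 0.602, 0.425, 1.38 and 0.450 CPM in knock-out, 0.848, 0.639, 0.444 and 0.304 CPM in knock-in and 0.942, 0.269, 0.706 and 0.619 CPM in wild-type libraries. Knock-out replicates 2 and 3 and wild-type replicates 1, 3 and 5 at day 7 lay above the naive range of their genotype. So did knock-in replicates 1, 3 and 4, of which replicate 1 stood far above the others. The stages overlapped in each genotype. Within a genotype no change passed, with log2 values of 1.73 ± 0.70 in knock-out, 1.46 ± 0.71 in knock-in and 1.42 ± 0.74 in wild-type cells (SE; adjusted p = 0.275, 0.327 and 0.376). The averaged change did pass, at 1.54 ± 0.41 (SE; adjusted p = 0.0143), and missed without knock-in day 7 replicate 1 (adjusted p = 0.0590). Without that library the knock-in log2 value was 0.36, and without knock-out day 7 replicate 2 the knock-out value was 1.01.

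Ccr6 had day 7 levels of 5.32, 11.2, 3.78 and 2.95 CPM in knock-out, 16.1, 3.002, 5.28 and 12.0 CPM in knock-in and 10.7, 6.30, 7.18, 3.71 and 6.25 CPM in wild-type cells. Its naive levels were 4.24, 2.13, 4.59 and 3.13 CPM in knock-out, 4.09, 2.72, 2.84 and 2.58 CPM in knock-in and 3.30, 3.89, 1.88 and 4.43 CPM in wild-type cells. Knock-out replicates 1 and 2 and knock-in replicates 1, 3 and 4 at day 7 lay above the naive range of their genotype. So did wild-type replicates 1, 2, 3 and 5. The other day 7 libraries lay within that range. The log2 change was 1.54 ± 0.42 in knock-in (SE; adjusted p = 0.053), 1.01 ± 0.43 in wild-type (SE; adjusted p = 0.249) and 0.68 ± 0.42 in knock-out cells (SE; adjusted p = 0.52). Averaged over the genotypes Ccr6 rose 2.11-fold (log2 1.08 ± 0.24, SE; adjusted p = 0.00404). The knock-in change passed without knock-in day 7 replicate 2 (adjusted p = 0.0155) or replicate 3 (adjusted p = 0.0306).

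**Figure D2:**
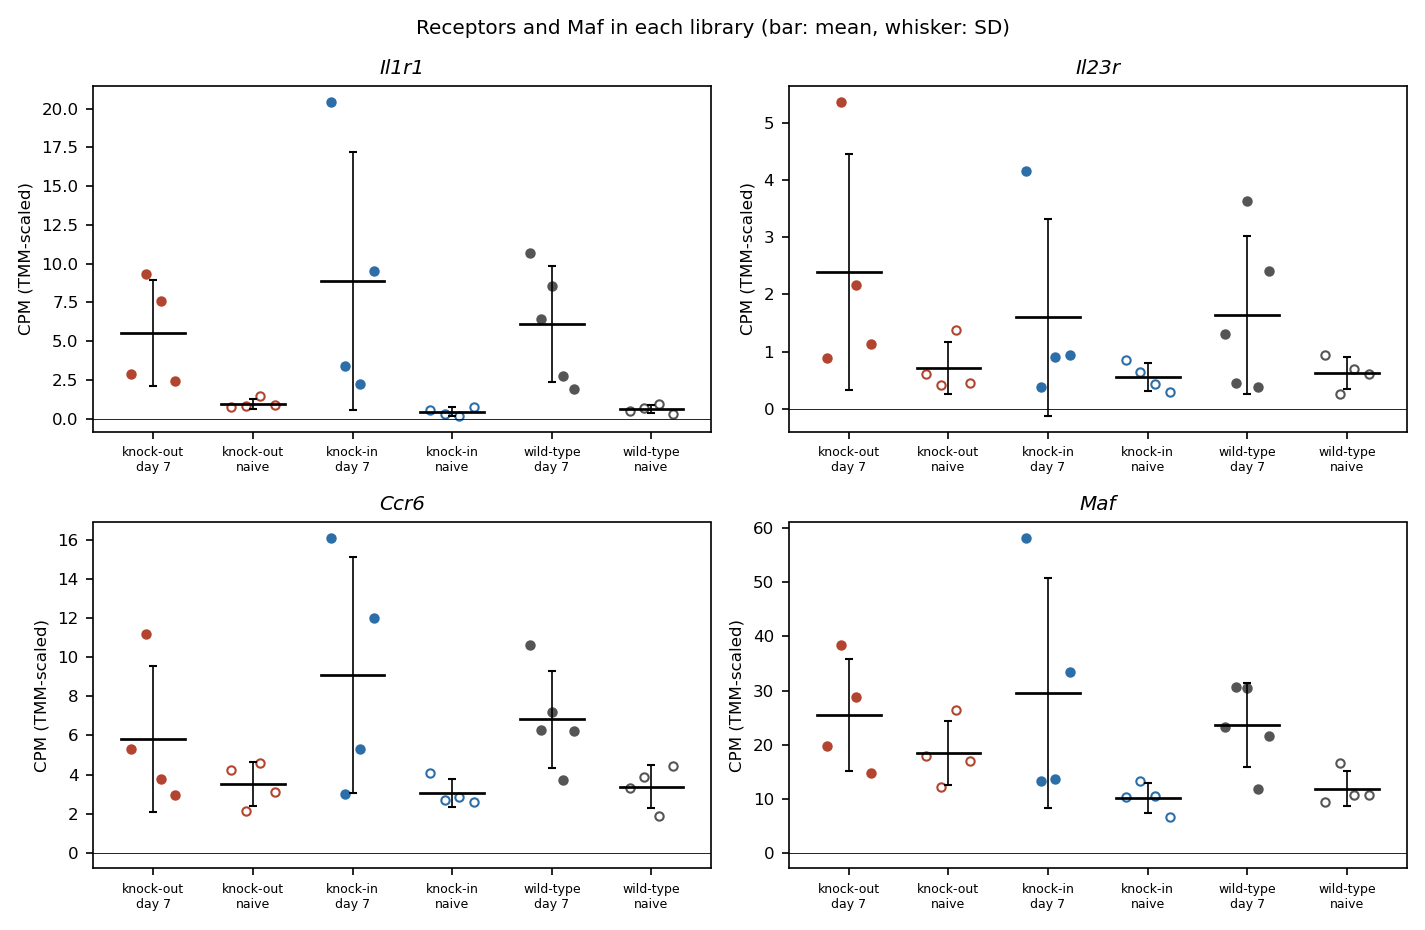
Levels of Il1r1, Il23r, Ccr6 and Maf (CPM after TMM scaling, vertical axes) in each library; filled points are day 7, open points naive, bars the group mean and whiskers the SD. Il1r1 separates the stages in every genotype, and the knock-in day 7 library at 20.5 CPM of Il1r1 is also the highest for Ccr6 and Maf, at 16.1 and 58.2 CPM.

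Among the 3 transcription factor genes Maf, whose product helps to switch on Il21 and Il10 in helper cells and also serves T follicular helper cells, had the largest averaged change. At day 7 it was read at 19.8, 38.4, 28.8 and 14.8 CPM in knock-out, 58.2, 13.2, 13.6 and 33.5 CPM in knock-in and 23.3, 30.7, 30.5, 11.8 and 21.6 CPM in wild-type cells. In naive cells it was at 17.9, 12.2, 26.5 and 17.0 CPM in knock-out, 10.2, 13.3, 10.4 and 6.53 CPM in knock-in and 9.42, 16.5, 10.7 and 10.7 CPM in wild-type libraries. The stages overlapped in each genotype. Maf rose 2.88-fold in knock-in cells (log2 1.53 ± 0.37, SE; adjusted p = 0.0282); the log2 value was 0.98 ± 0.37 in wild-type (SE; adjusted p = 0.186) and 0.46 ± 0.36 in knock-out cells (SE; adjusted p = 0.628). The knock-in call rested on single libraries. Without knock-in day 7 replicate 1 the log2 value was 0.95 (adjusted p = 0.285), and without naive knock-in replicate 1, 3 or 4 the adjusted p was 0.0864, 0.0794 or 0.0936. The averaged change of 0.99 ± 0.21 (SE; adjusted p = 0.00263) passed whichever library was left out.

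Rora and Ahr had the smallest averaged day 7 differences of the tested genes. Rora ranged over 16.2 to 29.5 CPM in knock-out, 10.3 to 20.4 CPM in knock-in and 13.6 to 22.6 CPM in wild-type cells at day 7, and over 12.2 to 16.6, 7.27 to 12.8 and 11.5 to 14.6 CPM in naive cells of the same genotypes. Its averaged log2 change of 0.51 ± 0.12 passed (SE; adjusted p = 0.00701), and no single genotype did, at 0.48 in knock-out, 0.65 in knock-in and 0.41 in wild-type cells. Ahr, which encodes a receptor for ligands such as tryptophan metabolites that is needed for Il22 expression, ranged over 2.32 to 9.32 CPM in knock-out, 2.85 to 5.62 CPM in knock-in and 2.46 to 4.96 CPM in wild-type cells at day 7. Naive Ahr levels were 1.13 to 5.89 CPM in knock-out, 2.43 to 3.799 CPM in knock-in and 2.00 to 3.76 CPM in wild-type cells. Its averaged log2 change was 0.35 ± 0.23 (SE, 95% confidence interval -0.13 to 0.83; adjusted p = 0.386).

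Counted together, all 7 tested genes had a positive log2 change in each genotype by edgeR, while limma voom put Ahr in knock-out cells at -0.085. Il22 had no naive count and passed the low-count filter through its day 7 counts alone. Its positive sign was therefore fixed in advance and is no result. By edgeR 2 of them rose in knock-in cells (Il1r1 and Maf), where 1.01% of all genes tested were called higher and 2.02% were called in either direction. In wild-type cells 1 rose (Il1r1), against 1.18% and 2.14% of all genes. In knock-out cells 0 of 7 passed, against 0.211% and 0.408% of all genes. Of those 7, 3 had an unadjusted p under 0.05, as had 12.8% of all genes, and 1 (Il1r1) was called by DESeq2 and 0 by limma voom. Day 7 and naive libraries did not overlap for 1 gene, Il1r1, in each genotype, when 2.43% of all genes lay wholly higher at day 7 in knock-out, 4.7% in knock-in and 2.94% in wild-type cells. In the change averaged over the genotypes 6 of 7 rose, all but Ahr, where 6.16% of all genes were called higher and 11.2% in either direction. Il22, whose direction was fixed in advance, is among these 6. Without day 7 knock-out replicate 3, the library that stood apart, 0 Th17 genes were called in knock-out cells, with Il1r1 at 2.32 (adjusted p = 0.151), and 6 in the averaged change. The median log2 change of the 7 genes was 0.68 in knock-out, 1.53 in knock-in and 1.01 in wild-type cells and 1.08 on average. The median over all genes lay within 0.01 of 0. Entering Il22 at its lower bound could not move these medians, since the bound also lay above each of them.

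**Figure D3:**
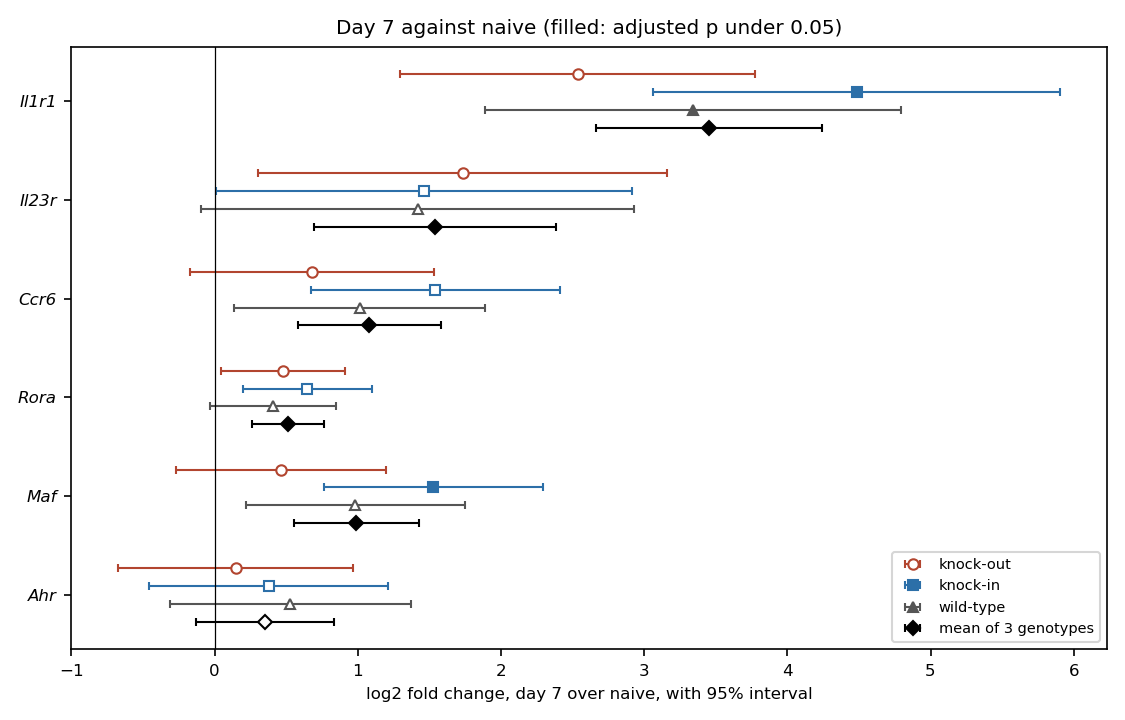
Log2 change at day 7 over naive (horizontal axis) for 6 of the Th17 genes in knock-out, knock-in and wild-type cells, with 95% confidence intervals; filled symbols passed an adjusted p of 0.05 by edgeR. Black diamonds give the mean of the 3 genotypes. Every edgeR estimate lies right of 0; Il1r1 in knock-in and wild-type cells and Maf in knock-in cells are filled, as is each averaged change but that of Ahr.

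The comparison between genotypes, which asks whether these genes go with the miR-150 genotype, found no Th17 gene that passed at either stage. Mir150 itself averaged 15.9 CPM in knock-in against 16.3 CPM in wild-type cells at day 7. At the naive stage the averages were 14.3 and 20.2 CPM. The knock-in libraries thus held no more reads of the Mir150 gene on average. Mature miR-150 was not measured, so these reads do not tell whether the knock-in allele raised it. At day 7, knock-out against wild-type cells called 0 of 7, with 0.0476% of all genes called. Knock-in against wild-type cells at day 7 called 0 of 7, with 0% of all genes called. At the naive stage 6 genes could be compared, since Il22 was at 0, and 0 of 6 were called for knock-out against wild-type (0.0204% of all genes) and 0 of 6 for knock-in against wild-type (0.0136% of all genes). In these 4 comparisons edgeR gave 0 of the Th17 genes an unadjusted p under 0.05, and DESeq2 and limma voom called 0. Of all genes, 9.45% for knock-out and 4.65% for knock-in had such a p against wild-type at day 7, and 7.55% and 2.26% at the naive stage. Without the low-count filter edgeR called Maf higher in naive knock-out than in naive wild-type cells (log2 0.64, adjusted p = 0.00359). With the filter the estimate was nearly the same, at 0.63, and its adjusted p was 0.739. The unfiltered fit gave smaller p-values at like estimates elsewhere too. For Il1r1 at day 7 against naive in knock-out cells the log2 value was 2.53 in both edgeR fits. Its adjusted p was 0.0561 with the filter and 2.39e-11 without it.

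The intervals show what these group sizes leave possible. For Il1r1 the day 7 log2 difference between knock-out and wild-type was -0.14 (95% confidence interval -1.21 to 0.92), and between knock-in and wild-type 0.55 (-0.50 to 1.60). For Ccr6 they were -0.27 (-1.07 to 0.54) and 0.42 (-0.37 to 1.20), and for Maf 0.11 (-0.58 to 0.81) and 0.34 (-0.35 to 1.04). Rora had the narrowest intervals of the tested Th17 genes, -0.24 to 0.58 for knock-out and -0.64 to 0.19 for knock-in against wild-type. Il22 had the widest, -4.82 to 0.94 and -0.95 to 3.72. These comparisons share their wild-type libraries.

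Knock-out set directly against knock-in cells at day 7 called 0 of 7, against 0.374% of all genes, and DESeq2 and limma voom also called 0. Il22 alone had an unadjusted p under 0.05, which 11.2% of all genes had, with 7 counts in knock-out, 84 in knock-in and 39 in wild-type libraries. Its log2 difference of -3.33 ± 1.38 (SE, 95% confidence interval -6.23 to -0.42) had an adjusted p of 0.376. Whether the day 7 change itself differed from wild-type was tested with interaction terms, in which 0 of 6 genes passed for knock-out and 0 of 6 for knock-in, with 0% of all genes called in both and no Th17 gene at an unadjusted p under 0.05 (7.79% of all genes for knock-out, 3.8% for knock-in); DESeq2 and limma voom called 0 as well. For Il1r1 the change differed from that of wild-type by -0.81 (-2.74 to 1.13) in knock-out and by 1.14 (-0.94 to 3.23) in knock-in cells. The day 7 changes of knock-out and knock-in cells were not tested against each other. For Il17f, day 7 knock-out against wild-type gave p = 0.437, knock-in against wild-type p = 0.563 and knock-out against knock-in p = 0.8 (exact permutation tests).

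**Figure D4:**
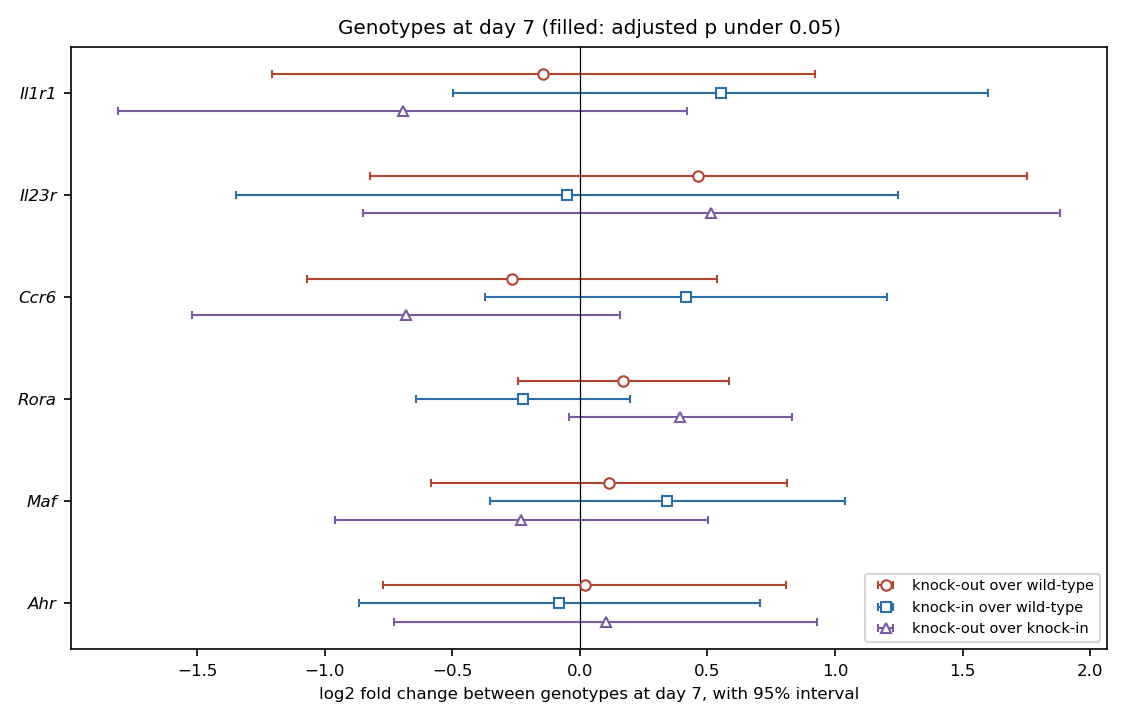
Log2 difference between genotypes at day 7 (horizontal axis) for 6 of the Th17 genes, with 95% confidence intervals, for knock-out over wild-type, knock-in over wild-type and knock-out over knock-in. Every interval spans 0, the widest being those of Il23r.

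Per kilobase of exon, the level scale on which genes can be compared, the Th17 genes are given by their means at day 7. In wild-type cells Ccr6 averaged 2.94 ± 1.08 and Maf 2.86 ± 0.941 CPM per kilobase (SD, n = 5). Rora followed at 1.38 ± 0.261, Il1r1 at 0.956 ± 0.588, Ahr at 0.660 ± 0.156, Il23r at 0.658 ± 0.554, Il22 at 0.399 ± 0.286, Il17f at 0.223 ± 0.190 and Il17a at 0. Each gene from Ccr6 to Il22 overlapped the next in this order, and Il1r1 overlapped Ahr, Il23r and Il22 as well as Rora. In knock-out cells Maf led at 3.09 ± 1.26 CPM per kilobase with Ccr6 at 2.51 ± 1.61, and in knock-in cells Ccr6 at 3.92 ± 2.60 stood with Maf at 3.59 ± 2.58 (SD, n = 4). The order of the middle genes differed: Il23r at 0.960 ± 0.828 was above Il1r1 at 0.872 ± 0.538 in knock-out cells, and Il1r1 at 1.40 ± 1.31 was above Rora at 1.18 ± 0.417 in knock-in cells, each within the spread. Il22 and Il17f lay within each other's spread, at 0.137 ± 0.249 and 0.127 ± 0.0726 in knock-out cells. In knock-in cells Il22 averaged 0.994 ± 1.20, above Il23r at 0.643 ± 0.693 and Ahr at 0.621 ± 0.203, within the spread. In each genotype every receptor and transcription factor gene of the list had a higher mean than Il17f and Il17a.

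Much of the spread inside a group was shared by the genes. At day 7, knock-in replicate 1 was above the mean of its group for 7 of 7 tested Th17 genes and replicate 4 for 6 of 7, while replicates 2 and 3 were above it for 0 of 7. Knock-out replicate 2 was above its group mean for 7 of 7 and replicate 4 for 0 of 7. Wild-type replicate 1 was above for 7 of 7 and replicate 4 for 0 of 7. The knock-in replicate 1 library was also the first of all 13 day 7 libraries for Il22, Il1r1, Ccr6 and Maf. After removal of the group means, the Pearson correlations of the 21 gene pairs over the 25 libraries ran from 0.30 for Il1r1 with Ahr to 0.81 for Il22 with Ccr6, all of them positive. Il22 was at 0 in every naive library, so its pairs rest on the 13 day 7 libraries. Its rank (Spearman) correlation with Ccr6 was 0.68. These are descriptions, since all genes share the libraries and their depth.

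**Figure D5:**
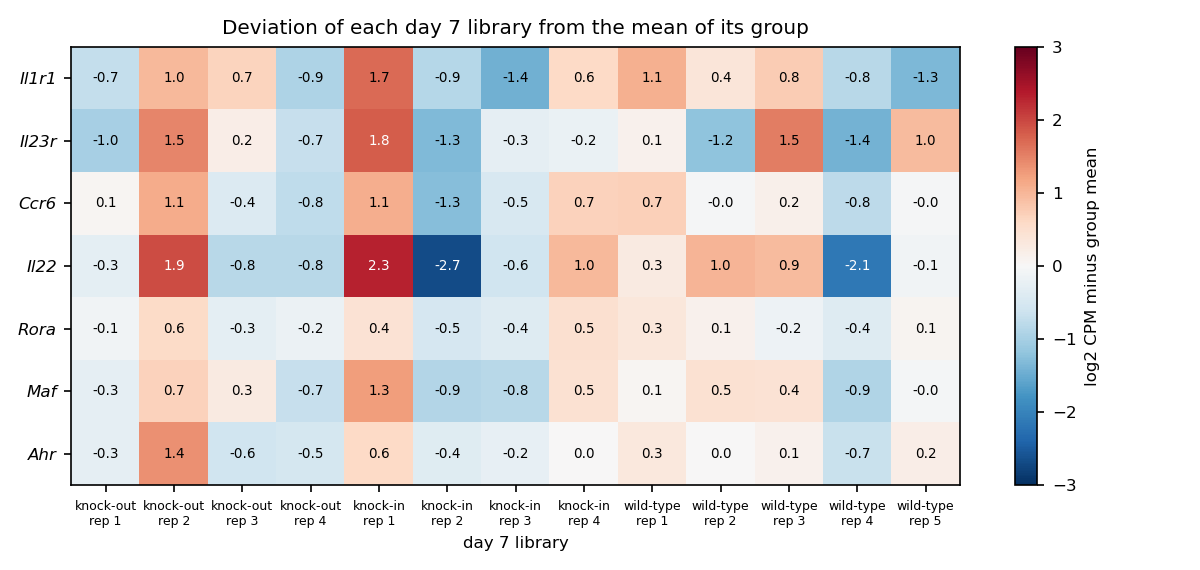
Deviation of log2 CPM from the group mean (colour and printed value) for the 7 tested Th17 genes in each of the 13 day 7 libraries. Knock-out replicate 2, knock-in replicate 1 and wild-type replicate 1 are above their group mean for all 7 genes, and the replicate 4 libraries of knock-out and wild-type are below it for all 7.

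The genes whose within-group pattern was most like each Th17 gene, among 9980 protein-coding genes compared over the 25 libraries, were of several kinds. Maf went with Ccr4 (Pearson r = 0.93), which encodes a chemokine receptor of activated and memory helper cells, and with Icos (0.90), a costimulatory receptor. Il22 went with Cxcr5 (0.90), the receptor that leads T cells into B cell follicles, and Foxm1 (0.88), a factor of mitotic gene expression. Il1r1 went with Hivep2 (0.82) and Tigit (0.81), an inhibitory receptor, and Il23r with Snap29 (0.82), a protein of membrane fusion. Rora went with Cenpe (0.85), which encodes a kinetochore motor, and Lmnb1 (0.85), a nuclear lamina protein. Ahr went with Anln (0.87), an actin-binding protein of cytokinesis, and Aspm (0.86), a spindle protein. Ccr6 went with Eea1 (0.89), an endosome tether, and Kif11 (0.86), a spindle motor.

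The rest of the Th17 pathway was read from lists. In the averaged day 7 change 6.16% of all genes tested were called higher and 11.2% in either direction. Within a genotype 0.408% of all genes were called in either direction in knock-out, 2.02% in knock-in and 2.14% in wild-type cells. Of 13 genes of the inducing signals, 2 rose and 4 fell in the averaged day 7 change, with a median log2 change of -0.01. Sgk1, a salt-sensing kinase that favours Il23r expression, rose by 0.36 (adjusted p = 4.83e-05) and Il21r, the interleukin-21 receptor, by 0.20 (adjusted p = 0.005). The signal chain of the interleukin-6 receptor, Il6st (-0.20, adjusted p = 0.000233), its kinase Jak1 (-0.13, adjusted p = 0.000456) and both transforming growth factor beta receptors, Tgfbr2 (-0.16, adjusted p = 0.000681) and Tgfbr1 (-0.18, adjusted p = 0.0208), fell slightly. In knock-in cells 1 rose (Sgk1) and 3 fell (Jak1, Tgfbr2 and Tgfbr1), in wild-type cells 1 fell (Il6st), and in knock-out cells 0 passed.

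Of 10 other transcription factors of the lineage, 5 rose and 0 fell on average, with a median log2 change of 0.16. Among all genes tested, 6.16% were called higher in the averaged change. Junb, an AP-1 subunit needed for Th17 cells in mice, rose by 1.21 in knock-out, 1.34 in knock-in and 1.99 in wild-type cells (adjusted p = 3.51e-07, 3.48e-08 and 5.09e-12). Nfkbiz, a nuclear inhibitor of kappa B protein that acts with ROR proteins, rose by 0.42 in knock-out, 0.52 in knock-in and 0.59 in wild-type cells (adjusted p = 0.00794, 0.000281 and 1.60e-05). Cebpb, a basic leucine zipper factor, rose in each genotype as well, by 1.26 on average (adjusted p = 1.22e-06). Stat3, the factor activated by interleukin-6 and interleukin-23, rose by 0.16 (adjusted p = 0.0392) and Runx1 by 0.11 (adjusted p = 0.0499) in the averaged change. Junb was the single gene of these lists called between genotypes. It was higher in naive knock-in than in naive wild-type cells by 0.68 (adjusted p = 0.0345), where 0.0136% of all genes were called in either direction. It was lower in day 7 knock-out than in day 7 knock-in cells (log2 difference -0.49, adjusted p = 0.0354), where 0.374% of all genes were called.

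Of 17 other effector and surface genes 12 could be tested, and on average 2 rose and 1 fell, with a median log2 change of 0.36. Among all genes tested, 6.16% were called higher and 11.2% in either direction in the averaged change. Il21, a cytokine shared by Th17 and T follicular helper cells, rose by 3.34 (adjusted p = 0.00146), Icos rose by 0.54 (adjusted p = 0.00701) and Gpr65, a proton-sensing receptor, fell by 0.32 on the log2 scale (adjusted p = 0.0229). Ccl20, the ligand of CCR6, had no count in any library. Of 12 genes that restrain the programme, 3 rose and 1 fell on average, with a median log2 change of 0.02. Socs3, the feedback inhibitor of STAT3 signalling, rose by 1.28 in knock-out, 1.82 in knock-in and 1.44 in wild-type cells (adjusted p = 0.00948, 8.68e-05 and 0.000753). Tigit rose by 1.66 (adjusted p = 0.00351) and Tob1 by 0.31 (adjusted p = 0.0407), while Egr2 fell by 0.35 on the log2 scale (adjusted p = 0.0279).

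Several of the Th17 genes are also used by other cells, so markers of these were read beside them. The share of all genes called in the averaged change was 6.16% higher and 11.2% in either direction. Of 7 T follicular helper markers 4 rose in the averaged change, Cxcr5, Tox2, Il21 and Icos, of which Il21 and Icos were also counted among the effector genes above. Within a genotype 0 passed in knock-out, 2 in knock-in and 0 in wild-type cells, against 0.408%, 2.02% and 2.14% of all genes. The summed level of the 7 was 86.6 to 161 CPM in knock-out, 84.5 to 220 CPM in knock-in and 84.3 to 133 CPM in wild-type cells at day 7. In naive cells the sum was 69.2 to 85.5, 62.2 to 82.5 and 79.1 to 92.5 CPM in the same genotypes, so that the stages overlapped in wild-type cells. Cxcr5 rose by 1.81 (adjusted p = 7.49e-05) and Tox2 by 2.69 (adjusted p = 1.26e-05). Of these markers Il21 alone was at 0 in some libraries, 1 of day 7 knock-out, 2 of naive knock-out and 1 of naive knock-in cells. Their part in the Th17 gene changes was not tested. Markers of gamma-delta T cells and type 3 innate lymphoid cells, which also express Il23r, Ccr6 and Il22, numbered 6. Of these 0 rose and 2 fell in the averaged change, Trdc by 0.71 and Tcrg-C1 by 0.97 on the log2 scale (adjusted p = 2.91e-06 and 0.0171), and 0 passed in knock-out cells. Their summed level was 10.9 to 19.3 CPM in knock-out, 10.6 to 15.8 CPM in knock-in and 8.77 to 19.3 CPM in wild-type cells at day 7, against 15.7 to 23.0, 16.5 to 22.7 and 19.3 to 25.5 CPM in naive cells. The stages overlapped in knock-out and, narrowly, in wild-type cells, where the day 7 maximum was 19.30 CPM and the naive minimum 19.28 CPM. Trdc, Tcrg-C1, Zbtb16 and Kit were detected in every library. Of the other marker lists, 0 of 6 B cell, 0 of 3 tested myeloid and 0 of 3 tested Th1 genes passed in the averaged change, 2 of 6 tested CD8 T and natural killer genes fell (Klrk1 and Nkg7), and 1 of 4 regulatory T cell genes rose (Ctla4, by 0.44, adjusted p = 0.00854).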

How the data were processed

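RNA of sorted CD4 T cells was sequenced in 25 libraries with a stranded total RNA kit, per the labels' protocols. The authors deposited whole-number counts per Ensembl gene. Per the submitters' processing notes the build was mm10 and DESeq2 was used; no aligner, counting tool or strand setting is given in the sources used here. Symbols and positions came from GENCODE M21 (45229 of 46078 identifiers had a symbol). Groups came from the labels' genotype and disease fields, and replicates are numbered in accession order, which pairs nothing.

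Genes kept by edgeR's filterByExpr (minimum count 10, minimum total 15) were TMM-scaled and entered the quasi-likelihood model with all 25 libraries, 1 mean per group, in 11 comparisons. P-values are two-sided, with Benjamini-Hochberg adjustment across the 14703 genes and a threshold of 0.05; an adjusted p with no tool beside it is edgeR's. Intervals are 95%. Il17a and Il17f, below the filter, were compared by exact permutation of log2(CPM + 0.5). A group at 0 was given a limit of 3 counts. The common biological coefficient of variation was 0.210. The members and lists were chosen with earlier results of these data known. All 9 members were named. Each other list gave up to 4 called genes with the smallest p per comparison. Each tested member gave the 2 protein-coding genes (mean of at least 1 CPM) with the highest within-group Pearson correlation; 1 gene so named is not reported here.

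Alternatives were limma voom with quality weights, DESeq2, its size factors in edgeR, the unfiltered table, a model of only the groups compared, blocks of 4 consecutive library numbers, removal of mitochondrial, ribosomal RNA and haemoglobin genes, and leaving out each library. The procedure was tested on simulated data. Models were run with edgeR 4.0.16, DESeq2 1.42.0 and limma 3.58.1 in R 4.3.3; tables and plots were made with pandas 2.3.3 and matplotlib 3.10.9 in Python 3.11.15.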

Additional observations from a re-analysis of the deposited data

Results flagged for a closer look

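Of 46 groups of 4 or 5 libraries with any spread, 8 had a highest library that stood far from the others by Dixon's test. For values with a normal distribution chance flags about 1 in 20 groups. The test was run on CPM without logs, and genes of few counts need not follow that distribution. The 8 therefore cannot be set against that rate. For Il17a, with 3 counts in replicate 3 and the other libraries at 0, the gap over the range is 1 whatever the value. In day 7 knock-out cells these were Il17a at 0.0664 CPM in replicate 3, Il22 at 0.565 CPM in replicate 2, with the next at 0.0426 CPM, and Ahr at 9.32 CPM in replicate 2, with the next at 2.94 CPM. In day 7 knock-in cells they were Il23r at 4.16 CPM in replicate 1, with the next at 0.951 CPM, and Il17f at 0.708 CPM in the same library, with the next at 0.197 CPM. In naive knock-out replicate 3, Il1r1 was at 1.45 CPM, with the next at 0.877 CPM, and Il17f at 0.314 CPM, with the next at 0.0450 CPM. In naive knock-in replicate 4, Il17f was at 0.607 CPM, with the next at 0.0799 CPM.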

How the results depend on the processing

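No paired analysis was possible because the labels give the groups no shared replicate numbers; blocks of 4 consecutive library numbers from the titles were modelled instead. Across the alternatives that kept all libraries, 64 counts of called Th17 genes stayed within 1.5 times and 12 did not. The main fit called 0 in every genotype and interaction comparison, so many of the 64 were 0 in both fits and say little about stability. Of the single gene values 478 kept their direction and side of the threshold, 18 came to pass, 5 were lost and 9 turned in direction; the cause was not tested. For day 7 against naive the Th17 genes called in knock-out cells were 2 with no filter and 1 each with only the groups compared, with blocks of library numbers and by DESeq2. In knock-in cells they were 5 with no filter, 1 with only the groups compared, and 4 each without mitochondrial, ribosomal RNA and haemoglobin genes and by limma voom. In wild-type cells they were 3 with no filter, 2 with only the groups compared and 0 by limma voom. The knock-in counts of 5 and 4 include Il22, whose direction was fixed in advance. Knock-out against wild-type at the naive stage gave 1 with no filter. Leaving out 1 library gave 0 to 1 in knock-out, 1 to 4 in knock-in and 1 in wild-type cells, and 5 to 7 in the averaged change, where the seventh was Il17f (adjusted p = 0.0172), which passed the low-count filter without naive knock-out replicate 3.

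With blocks of library numbers the direction turned for Rora in naive knock-out against wild-type (-0.012), Il23r in naive (0.13) and day 7 (0.55) knock-in against wild-type, and Ahr in day 7 knock-in against wild-type (0.068). Maf in knock-in (adjusted p = 0.0617) and averaged Il23r (0.0675) were lost, and Il1r1 in knock-out (0.0447) and Il22 in knock-in (0.0454) came to pass. By limma voom it turned for Ahr in knock-out day 7 against naive (-0.085), in day 7 knock-out against wild-type (-0.25) and against knock-in (-0.14), Il23r in naive knock-out against wild-type (-0.21) and Maf in day 7 knock-out against wild-type (-0.079). Averaged Il23r (0.0580) and Il1r1 in wild-type (0.157) were lost, and Il22 (0.0339) and Ccr6 (0.0261) in knock-in came to pass. None of the turned values was called in either fit.

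Leaving out 1 library turned the direction of values that were not called, over these log2 ranges (Il17f by permutation, chosen after seeing the data). In knock-out day 7 against naive these were Ahr -0.53 to 0.48. In day 7 knock-out against wild-type these were Ahr -0.66 to 0.23, Il1r1 -0.48 to 0.17, Il23r -0.26 to 0.99, Maf -0.14 to 0.30 and Rora -0.048 to 0.27. In day 7 knock-in against wild-type these were Ahr -0.34 to 0.033, Ccr6 -0.027 to 0.70, Il17f -0.41 to 0.0024, Il1r1 -0.29 to 0.88, Il23r -1.16 to 0.48 and Maf -0.24 to 0.59. In day 7 knock-out against knock-in these were Ahr -0.58 to 0.35, Il17f -0.18 to 0.15, Il1r1 -1.03 to 0.15, Il23r -0.20 to 1.63 and Maf -0.48 to 0.35. In naive knock-out against wild-type these were Ccr6 -0.14 to 0.24, Il17f -0.12 to 0.12 and Il23r -0.33 to 0.37. In naive knock-in against wild-type these were Ahr -0.10 to 0.24, Ccr6 -0.32 to 0.060, Il17f -0.015 to 0.33 and Il23r -0.40 to 0.13. In the interaction of knock-out these were Il23r -0.41 to 0.84 and Rora -0.15 to 0.17. In the interaction of knock-in these were Ahr -0.41 to 0.020, Il23r -1.06 to 0.58 and Maf -0.038 to 0.79. Without day 7 wild-type replicate 3, Il22 fell below the low-count filter. The Il22 fold bounds without 1 library were added after seeing the data, and without day 7 knock-out replicate 2 none could be given. Depth limits Il17a, Il17f and Il22 most, at 3, 98 and 130 counts over all libraries.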
